A study of Homo sapiens with 5 samples.

Results

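The squamous keratin genes described here are KRT5, KRT6A, KRT6B, KRT8, KRT13, KRT14, KRT15, KRT16, KRT17 and KRT18, 10 genes given by name and found by gene symbol. They were measured by RNA-seq in SAS cells, an established line of human tongue squamous cell carcinoma. Of the 16982 genes listed in either of the 2 deposited count tables, 43 were keratin genes and 10 of those were these. KRT13 was listed in 1 table and the other 9 in both, and those 9 all passed the filter on low counts, so that none was lost to it. The table called set A held 1 library with control short hairpin RNA, shCtrl 1, and 2 libraries with short hairpin RNA against CCT2, shCCT2 1 and shCCT2 2. The table called set B held 1 library of each kind, shCtrl 2 and shCCT2 3. CCT2 encodes a subunit of the chaperonin CCT, and the title of the series links it to proliferation, migration and PI3K/AKT signalling. All 5 libraries carried a hairpin, and no library of cells without one was used here. The labels name neither the hairpin sequences nor separate cultures, and the p-values therefore rest on a spread between libraries that may be technical.

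Keratins are the intermediate filament proteins of epithelia. A type I keratin must pair with a type II keratin to form a filament, and each epithelial state has its usual pair. KRT5 (type II) and KRT14 (type I) are the pair of the basal layer of stratified epithelium, and KRT15 is a further basal type I keratin. KRT6A and KRT6B (type II) with KRT16 and KRT17 (type I) are the keratins of wounded, activated and hyperproliferating epithelium. KRT13 is a type I keratin of the upper layers of the internal mucosa, such as that of the mouth, where its partner is KRT4. KRT8 (type II) and KRT18 (type I) form the pair of simple epithelia and are commonly also made by carcinoma cells.

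Several of these genes are near copies of each other, which bears on how far their counts can be told apart. In the coding sequences of GENCODE 29, KRT6A and KRT6B were identical at 97.5% of aligned bases, and both shared that level with KRT6C, at 97.9% and 98.5%. The first pair of sequences below is the region around the longest stretch that all 3 KRT6 genes share without a difference, 269 bases long, from base 133 to base 431 of each coding sequence counted from the A of the start codon. KRT6C reads as KRT6A does throughout it, and capitals mark the 2 bases where KRT6B differs from KRT6A.
KRT6A: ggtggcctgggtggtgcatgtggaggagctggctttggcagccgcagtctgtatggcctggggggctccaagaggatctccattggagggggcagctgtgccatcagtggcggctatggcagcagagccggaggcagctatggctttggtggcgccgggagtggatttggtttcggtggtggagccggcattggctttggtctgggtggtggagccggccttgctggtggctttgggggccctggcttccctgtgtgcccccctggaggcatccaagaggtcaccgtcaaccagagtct
KRT6B: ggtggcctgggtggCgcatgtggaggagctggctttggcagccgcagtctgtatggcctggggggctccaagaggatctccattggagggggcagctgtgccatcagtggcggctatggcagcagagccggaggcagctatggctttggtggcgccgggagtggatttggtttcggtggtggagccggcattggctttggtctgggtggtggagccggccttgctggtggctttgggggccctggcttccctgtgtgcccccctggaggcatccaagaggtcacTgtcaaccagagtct
The next pair shows why KRT5 is not wholly separate from the KRT6 genes. Over all aligned coding bases KRT5 and KRT6A were identical at 81.5%, but bases 560 to 703 of KRT6A and 575 to 718 of KRT5 hold a run of 104 identical bases, and capitals mark the 4 differences of KRT5 around it.
KRT6A: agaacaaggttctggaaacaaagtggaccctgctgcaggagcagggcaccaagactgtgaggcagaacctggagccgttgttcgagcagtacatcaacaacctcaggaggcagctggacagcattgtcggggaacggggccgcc
KRT5: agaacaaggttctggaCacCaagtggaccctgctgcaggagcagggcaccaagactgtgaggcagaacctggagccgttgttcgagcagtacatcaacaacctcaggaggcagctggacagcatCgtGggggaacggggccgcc
The last set is the region that joins the type I genes. KRT14 (bases 332 to 424), KRT16 (338 to 430) and KRT17 (239 to 331) share a run of 53 bases, KRT14 and KRT16 are identical over the whole region, and capitals mark the 9 differences of KRT17.
KRT14: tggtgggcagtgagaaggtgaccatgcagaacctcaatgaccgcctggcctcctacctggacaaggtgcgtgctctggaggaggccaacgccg
KRT16: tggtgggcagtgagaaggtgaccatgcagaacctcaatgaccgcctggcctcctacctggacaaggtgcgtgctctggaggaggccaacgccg
KRT17: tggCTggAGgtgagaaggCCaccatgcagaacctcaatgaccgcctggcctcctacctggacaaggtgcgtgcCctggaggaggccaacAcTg
Of all 100-base stretches of the transcript, 24.6% for KRT6B and 18.2% for KRT6A also occurred in another gene. The share was 7.25% for KRT8, all of it in processed pseudogenes, 7.18% for KRT16, 5.95% for KRT14, 1.44% for KRT5, 0.353% for KRT17 and 0 for KRT13, KRT15 and KRT18. The deposited counts of KRT5, KRT6A and KRT6B were not whole numbers in any library, while those of the other members were whole. The values of KRT6A and KRT6B are therefore uncertain as a split between those genes. KRT8 and KRT18 are neighbours that overlap on opposite strands in RefSeq's GRCh38.p14 annotation, and no source used here gives whether counting was stranded.

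The 2 sets stood apart in far more than keratins. Library totals ran from 16913585 to 18156592 counts. Across genes, the correlation of log2 CPM (counts scaled to the library's size with edgeR's TMM factors) was 0.981 to 0.990 within set A, 0.917 between the 2 libraries of set B and 0.832 to 0.871 between sets. Of 9639 genes at 10 CPM or more throughout at least 1 set, 21 were under 1 CPM in every library of set B and 46 in every library of set A. In these counts a gene not listed in a set was taken as 0 there, as KRT13 was in set A. CCT2 itself was at 629.9 CPM in shCtrl 1 and 642 in shCtrl 2, against 296 in shCCT2 1, 272 in shCCT2 2 and 260.2 in shCCT2 3, a fitted log2 change of -1.22 ± 0.18 (SE; adjusted p = 0.542 in edgeR's quasi-likelihood test and 3.90e-05 in DESeq2). Markers of a squamous epithelium summed to between 2768 and 6734 CPM and those of epithelia in general to between 2027 and 9842 CPM, with none at 0 in any library. The first of these lists holds KRT5, KRT14 and KRT17 and the other KRT8, KRT18 and KRT19. In shCtrl 2, KRT8 plus KRT18 held 1643 of the 2027 CPM. Between sets, 4 of the 8 general markers were lower in set B and 0 higher (adjusted p under 0.05 in edgeR), as were 13.8% and 14.9% of all genes. Of the 11 squamous markers, 3 were lower and 1 higher. CDH1, picked out after its values were seen, was at 251, 185 and 213 CPM in shCtrl 1, shCCT2 1 and shCCT2 2. It was at 10.6 in shCtrl 2 and 24.9 in shCCT2 3. Summed fibroblast markers were at 3.06 to 12.4 CPM, with 4 or 5 of 8 at 0 or not listed, leukocyte markers at 0.805 to 22.7 CPM, with 1 to 3 of 6, and endothelial markers at 2.71 to 7.90 CPM, with 1 or 2 of 6. Because of this separation the control of the same set served each knockdown library, and the 2 sets were also compared with each other.

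The basal pair was much more abundant in set A than in set B, and in both knockdown libraries of set A it was below its control, KRT5 by more than KRT14. KRT5 was at 1943 CPM in shCtrl 1, 913 in shCCT2 1 and 1332 in shCCT2 2, and at 258 in shCtrl 2 and 298 in shCCT2 3. Every set A library was above both set B libraries. Against the control of the same set, the log2 change of KRT5 (from CPM with 0.5 added, as for all single libraries) was -1.09 in shCCT2 1, -0.54 in shCCT2 2 and 0.21 in shCCT2 3. KRT14, its partner, was at 680.1 CPM in shCtrl 1, 539.8 in shCCT2 1 and 583 in shCCT2 2, and at 87.6 in shCtrl 2 and 98.0 in shCCT2 3. Its log2 changes were -0.33, -0.22 and 0.16, in the same directions as those of KRT5 and smaller. The log2 ratio of KRT5 to KRT14 was 1.51 in shCtrl 1, 0.76 in shCCT2 1, 1.19 in shCCT2 2, 1.56 in shCtrl 2 and 1.60 in shCCT2 3. The 2 controls thus had nearly the same ratio although the levels of both genes were far higher in shCtrl 1.

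KRT15, the other basal keratin, ran the opposite way between sets. It was at 7.32 CPM in shCtrl 1, 3.48 in shCCT2 1 and 11.3 in shCCT2 2, and at 201 in shCtrl 2 and 61.3 in shCCT2 3. The set B libraries were both above the set A libraries, and within each set the values were spread widely. Against their controls shCCT2 1 was at -0.98 on the log2 scale, shCCT2 2 at 0.60 and shCCT2 3 at -1.71, so the 2 knockdown libraries of set A lay on either side of their control. KRT13, the mucosal keratin, was listed in set B alone, with 1054 counts (55.9 CPM) in shCtrl 2 and 495 counts (27.0 CPM) in shCCT2 3. The ratio of shCCT2 3 to shCtrl 2 was 0.484, with a 95% counting interval of 0.434 to 0.539 that covers counting error in these 2 libraries and not the spread between cultures. Set A listed no row for KRT13, and neither table held any gene at 0 in all of its libraries. KRT4, the partner of KRT13, had 1 count in shCtrl 2 and 0 in shCCT2 3 and was not listed in set A.

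Among the keratins of activated epithelium, KRT6A and KRT6B stood out in a single library. KRT6A was at 40.3 CPM in shCtrl 1, 45.6 in shCCT2 1 and 45.9 in shCCT2 2, and at 64.8 in shCtrl 2 and 630.45 in shCCT2 3. KRT6B was at 1.62 CPM in shCtrl 1, 0.71 in shCCT2 1 and 0.66 in shCCT2 2, and at 1.70 in shCtrl 2 and 44.3 in shCCT2 3. In both genes shCCT2 3 lay far above the other 4 libraries, which for KRT6A were all below 65 CPM. The log2 change in shCCT2 3 was 3.27 for KRT6A and 4.35 for KRT6B, and of the 13123 genes tested 45 and 12 had a larger one in absolute value. In set A the log2 changes were 0.18 and 0.19 for KRT6A, and -0.81 and -0.87 for KRT6B, the latter at 28.01, 12.02 and 11.02 counts in shCtrl 1, shCCT2 1 and shCCT2 2. KRT6C, the third copy, had 1.99, 3.01 and 0 counts in set A and was not listed in set B. KRT6A and KRT6B share the stretch printed above with KRT6C, so their sum is firmer than their split. Summed as 1 feature, the 3 copies had a fitted log2 change of 1.36 (adjusted p = 0.542).

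The type I keratins of the same state did not follow them. KRT16 was at 1.96 CPM in shCtrl 1, 2.30 in shCCT2 1 and 1.85 in shCCT2 2, and at 9.81 in shCtrl 2 and 9.12 in shCCT2 3. Its log2 changes were 0.19, -0.07 and -0.10, the smallest spread of the 9 genes, at 31 to 39 counts a library in set A and 167 to 185 in set B. KRT17 was at 1115 CPM in shCtrl 1, 629 in shCCT2 1 and 987 in shCCT2 2, and at 404 in shCtrl 2 and 111 in shCCT2 3. KRT17 was below its control in 3 of 3 knockdown libraries, with log2 changes of -0.83, -0.18 and -1.86. In shCCT2 3, then, the type II keratins of this group were above the control and KRT17 was below it. The log2 ratio of KRT6A plus KRT6B to KRT16 plus KRT17 was -4.74, -3.77 and -4.41 in shCtrl 1, shCCT2 1 and shCCT2 2, and it was -2.64 in shCtrl 2 and 2.49 in shCCT2 3. The mean difference from the control over the 3 knockdown libraries was 2.14 ± 2.60 (SD, n = 3; two-sided exact permutation test within sets, p = 0.333). Here and below, the exact test gives the difference within set A and that within set B equal weight. Its p is therefore not that of the printed mean over libraries. shCCT2 1 and shCCT2 2 were both set against shCtrl 1, so the 3 differences are not independent. With 6 arrangements the smallest p this design allows is 0.167, so that no such test can reach 0.05.

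KRT8 and KRT18, the simple-epithelial pair, kept close to each other from library to library. KRT8 was at 3672 CPM in shCtrl 1, 2712 in shCCT2 1 and 4215 in shCCT2 2, and at 703 in shCtrl 2 and 2386 in shCCT2 3. KRT18 was at 3769 CPM in shCtrl 1, 2575 in shCCT2 1 and 4214 in shCCT2 2, and at 939.8 in shCtrl 2 and 2528 in shCCT2 3. For both genes shCtrl 2 was the low library, and shCCT2 3 lay just under the lowest library of set A. The log2 changes of KRT8 were -0.44, 0.20 and 1.76, and those of KRT18 were -0.55, 0.16 and 1.43. The log2 ratio of KRT8 to KRT18 stayed between -0.08 and 0.07 in 4 libraries and was -0.42 in shCtrl 2. Over the 5 libraries the centred log2 CPM of the pair lay at a root mean square distance of 0.17, the closest of any 2 keratins with a mean of 10 CPM or more. KRT5 and KRT14 came next, at 0.32.

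**Figure D1:**
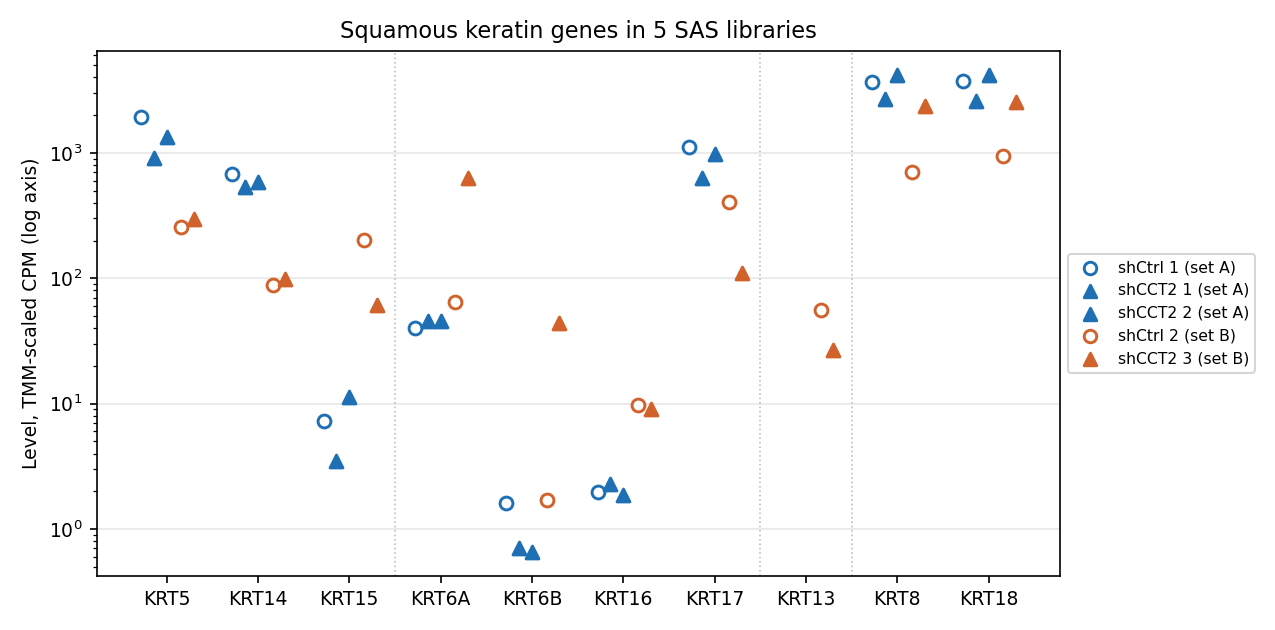
TMM-scaled CPM on a log axis for the 10 genes, grouped as basal, activated, mucosal and simple-epithelial keratins; open circles are shCtrl, filled triangles shCCT2, blue set A and orange set B, 1 point per library with no replicate mean. KRT6A and KRT6B lie far above the other libraries in shCCT2 3 (630.45 and 44.3 CPM), and KRT13 has points in set B alone.

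No member passed the test of shCCT2 against shCtrl over all 5 libraries. The count was 0 of 9, against a background of 0.0% of the 13123 genes tested (edgeR's quasi-likelihood test with the set as a term, adjusted p under 0.05). The lowest adjusted p of any gene was 0.542, and CCT2, the targeted gene, did not pass either. On simulated counts without a set difference, this test called 1 of 196 genes changed 2-fold and 171 of 191 changed 4-fold. A count of 0 therefore does not show that the members were unchanged. DESeq2 also called 0 of the 9 members, and 0.11% of all genes. Over all genes 972, or 7.41%, had an unadjusted p under 0.05. Of the members at that limit, 1 of 9 was lower, where 4.57% of all genes were, and 0 of 9 were higher, where 2.83% were. That gene was KRT17, with a fitted log2 change of -1.08 ± 0.39 (SE; adjusted p = 0.542 in edgeR). KRT6A had the largest fitted value, 1.37 ± 0.68 (adjusted p = 0.542), and KRT6B the widest error, 1.30 ± 1.44 (adjusted p = 0.695). Both rest on shCCT2 3: without that library the fitted value was 0.18 for KRT6A and -1.23 for KRT6B. KRT8 was at 0.66 ± 0.45 and KRT18 at 0.49 ± 0.41, and without shCCT2 3 they were at -0.08 and -0.15. KRT15 was at -0.82 ± 0.60, KRT5 at -0.38 ± 0.30, KRT14 at -0.09 ± 0.20 and KRT16 at -0.01 ± 0.37. Without shCCT2 3, KRT17 was at -0.46 and KRT15 at 0.02, and without shCtrl 1, KRT5 was at 0.24 and KRT14 at 0.19. The median over the 9 members was -0.01, beside -0.02 over all tested genes, with 4 above 0 and 5 below.

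Single libraries showed how unevenly the keratins varied. In shCCT2 1, 1 of 9 members was lower by 2-fold or more, KRT5, where 3.27% of all genes were, and 0 were higher by as much, where 0.671% were. In shCCT2 2 the counts were 0 and 0, against 0.61% lower and 0.472% higher. In shCCT2 3, 4 of 9 were higher by 2-fold or more, KRT6A, KRT6B, KRT8 and KRT18, against 8.37% of all genes, and 2 of 9 were lower, KRT15 and KRT17, against 13.8%. The median absolute log2 change of the members was 0.55, 0.20 and 1.71 in shCCT2 1, 2 and 3, beside 0.24, 0.14 and 0.51 over all genes. KRT6A was the member above its control in all 3 libraries, as were 20.2% of all genes, and KRT17 the member below it in all 3, as were 21.4%. For KRT5, KRT14 and KRT6B both set A libraries lay on 1 side of their control and shCCT2 3 on the other, as they did for 22.6% of all genes. These are differences between pairs of libraries, with no replicate check for set B.

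**Figure D2:**
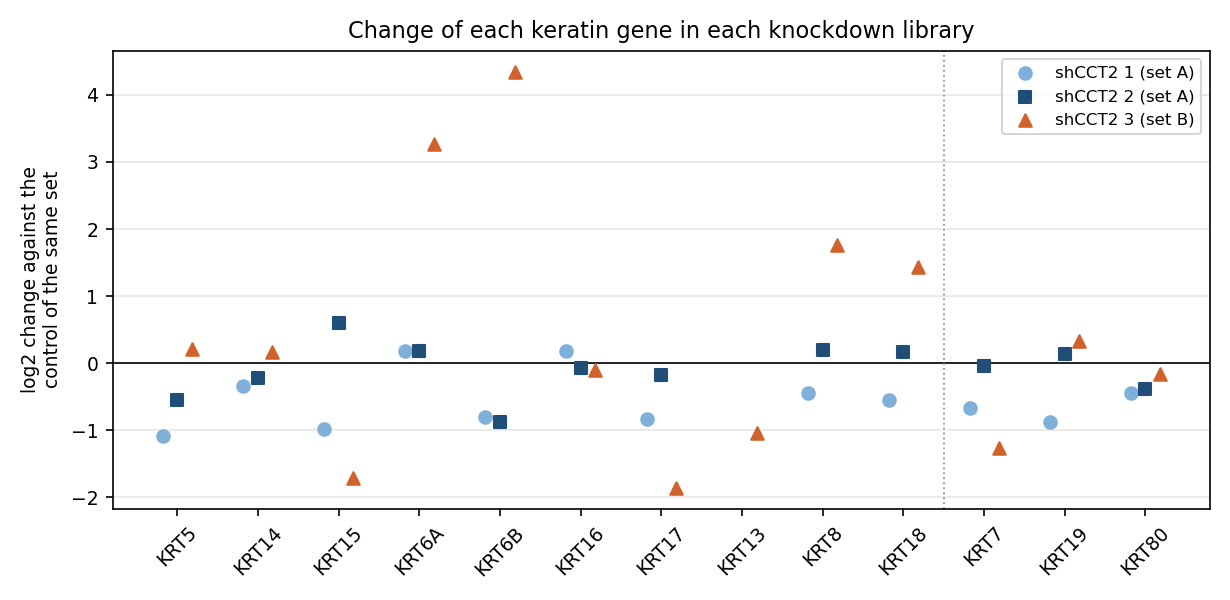
Log2 change of each knockdown library against the control of its own set (CPM with 0.5 added), for the 10 genes and, right of the dotted line, the other keratins with a mean of 10 CPM or more; 1 point per library. The orange triangles of shCCT2 3 reach 4.35 for KRT6B and -1.86 for KRT17, while the set A points lie between -1.09 and 0.60.

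The change was also compared between sets, with an interaction of hairpin and set in edgeR's quasi-likelihood fit, which left 1 residual degree of freedom. The replicate spread behind these SEs and p-values is that between shCCT2 1 and shCCT2 2 alone. Set B has no replicate of either hairpin, so its own spread is not in them. For KRT6B the change in set B exceeded that in set A by 5.94 ± 0.56 on the log2 scale (SE; adjusted p = 0.0932), and for KRT6A by 3.10 ± 0.29 (adjusted p = 0.0932, the lowest of any gene). The difference was 1.85 ± 0.43 for KRT8 (adjusted p = 0.157), 1.58 ± 0.46 for KRT18 (0.204) and -1.40 ± 0.46 for KRT17 (0.233). None of the 9 passed, nor did any other gene (0.0%), while 17.2% of all genes had an unadjusted p under 0.05. At an unadjusted p under 0.05, 4 of 9 members were higher in set B's change, KRT6A, KRT6B, KRT8 and KRT18, where 7.83% of all genes were, and 1 was lower, KRT17, where 9.35% were. For the other 4 the difference was 0.9997 ± 0.41 (KRT5), 0.44 ± 0.30 (KRT14), -0.19 ± 0.63 (KRT16) and -1.73 ± 0.90 (KRT15).

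The fitted difference between sets was larger than that between hairpins for each of the 9 members tested, in a description over these 5 libraries. How many of all genes share this was not counted, so it is not shown to be particular to keratins. At an adjusted p under 0.05, 28.7% of all genes passed between sets and 0.0% between hairpins. In the same fit, 6 of 9 members differed between set B and set A at an adjusted p under 0.05, where 28.7% of all genes did. The 3 lower in set B were KRT14, by a log2 difference of -2.70 ± 0.22 (SE; adjusted p = 0.00183 in edgeR), KRT5, at -2.33 ± 0.33 (0.00678), and KRT17, at -2.24 ± 0.42 (0.0136), against 13.8% of all genes. The 3 higher in set B were KRT15, at 3.81 ± 0.60 (0.00907), KRT6A, at 2.62 ± 0.65 (0.0304), and KRT16, at 2.21 ± 0.36 (0.00972), against 14.9%. So the basal pair with KRT17 was lower in set B, and KRT15 with the activation keratins KRT6A and KRT16 was higher. KRT6B (3.99 ± 1.31, adjusted p = 0.0644), KRT8 (-1.28 ± 0.46, 0.0800) and KRT18 (-1.07 ± 0.41, 0.1001) did not pass. All 9 members were nevertheless without overlap between sets, 5 with every set A library above every set B library (28.7% of all genes) and 4 with every one below (29.5%). The set and everything that differed between the 2 deposited tables cannot be told apart.

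Some of these calls leaned on 1 library. Without shCCT2 3 the difference of KRT6A was 0.72 and that of KRT6B 0.10. For every gene that fit compares shCtrl 2 alone with shCtrl 1 alone, 1 library each. Without shCCT2 2 the difference of KRT6A was 2.24 (adjusted p = 0.0575). Without shCtrl 1 or shCtrl 2 the difference was 3.78 for KRT6A and 6.004 for KRT6B. For every gene these 2 fits make the same comparison, of shCCT2 3 alone with shCCT2 1 and shCCT2 2, and so are not separate checks. Between the controls alone, without shCCT2 3, KRT8 was at -2.35 and KRT18 at -1.97. KRT8 passed without shCCT2 1, at -1.60. The difference of KRT17 ran from -1.43 without shCCT2 3 to -2.86 without either control, and that of KRT15 from 3.04 without shCtrl 2 and 3.05 without shCtrl 1 to 4.46 without shCCT2 2 and 4.81 without shCCT2 3, with the call kept each time. Without TMM scaling the median gene's difference between sets was 0.17 in place of 0.005, and each difference was shifted by about that amount. With the genes of 1 table set to 0 in the other, KRT13 passed as higher in set B (adjusted p = 0.00172), a call that rests on reading the absent rows of set A as 0.

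**Figure D3:**
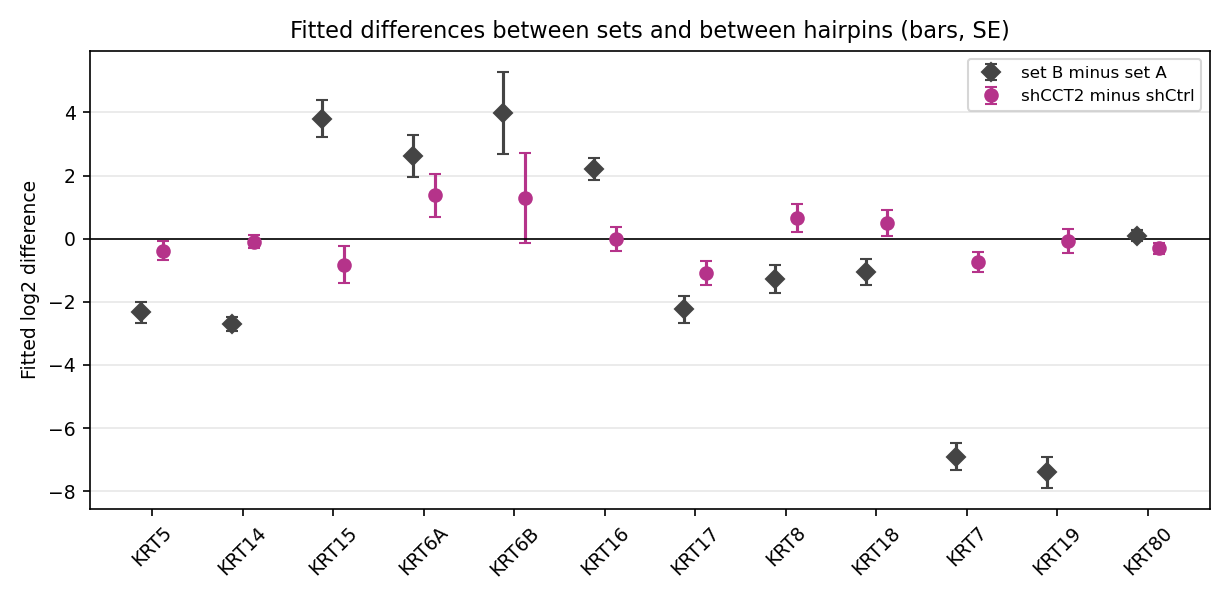
Fitted log2 difference of set B minus set A (diamonds) and of shCCT2 minus shCtrl (circles), with bars for SE, for the 9 members in both tables and for KRT7, KRT19 and KRT80, from all 5 libraries. The set differences run from -7.40 (KRT19) to 3.99 (KRT6B), and the hairpin differences stay between -1.08 and 1.37.

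Together the 25 keratin genes in both tables took 1.55% of the total in shCtrl 1, 0.977% in shCCT2 1 and 1.53% in shCCT2 2, and 0.325% in shCtrl 2 and 0.658% in shCCT2 3. Their summed level was 16037 CPM in shCtrl 1, 10450.2 in shCCT2 1, 16073 in shCCT2 2, 2913 in shCtrl 2 and 6366 in shCCT2 3. On the log2 scale the changes of the sum were -0.62, 0.003 and 1.13, a mean of 0.17 ± 0.88 (SD, n = 3; two-sided exact permutation test, p = 0.667), and without shCCT2 3 the mean was -0.31. In bulk RNA, fewer cells making a keratin and less of it per cell cannot be told apart. The 9 members in both tables held 70.0% of this sum in shCtrl 1, 71.0% in shCCT2 1 and 70.9% in shCCT2 2, and 91.7% in shCtrl 2 and 96.9% in shCCT2 3. Most of the rest in set A was KRT7, a type II keratin of simple and glandular epithelia, at 4347 CPM in shCtrl 1, 2747 in shCCT2 1 and 4231 in shCCT2 2. In set B it was at 52.5 CPM in shCtrl 2 and 21.6 in shCCT2 3. KRT19, a type I keratin of simple epithelia, was at 298, 162 and 329.7 CPM in shCtrl 1, shCCT2 1 and shCCT2 2, and at 1.33 and 1.80 CPM in shCtrl 2 and shCCT2 3. Both differed between sets by more than any of the 9 members in both tables, at -6.91 ± 0.43 for KRT7 and -7.40 ± 0.49 for KRT19 (adjusted p = 0.00142 and 0.00144 in edgeR). KRT80, a type II keratin of many epithelia, was at 149 CPM in shCtrl 1, 109 in shCCT2 1, 114 in shCCT2 2, 143 in shCtrl 2 and 128 in shCCT2 3.

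As shares of the keratin counts, KRT8 plus KRT18 held more in each knockdown library than in its control, and KRT5, KRT17 and the other simple keratins KRT7 plus KRT19 held less. KRT8 plus KRT18 made up 46.4% in shCtrl 1 (95% Wilson interval 46.2 to 46.6), 50.6% in shCCT2 1 (50.4 to 50.8) and 52.4% in shCCT2 2 (52.3 to 52.6), and 56.4% in shCtrl 2 (56.0 to 56.8) and 77.2% in shCCT2 3 (77.0 to 77.4). The intervals cover counting error alone. The share was above its control in 3 of 3 libraries, by 4.19, 6.04 and 20.8 percentage points, a mean of 10.3 ± 9.10 (SD, n = 3; two-sided exact permutation test, p = 0.167, the smallest possible). As shCCT2 1 and shCCT2 2 share the control shCtrl 1, neither the SDs nor the counts of 3 here rest on independent differences. In level, the log2 change of the summed CPM of KRT8 plus KRT18 was -0.49, 0.18 and 1.58, so its share rose in shCCT2 1 while its level fell. KRT5 made up 12.1% in shCtrl 1, 8.74% in shCCT2 1 and 8.29% in shCCT2 2, and 8.85% in shCtrl 2 and 4.68% in shCCT2 3. Its share was below the control in 3 of 3 libraries, with differences of -3.37, -3.83 and -4.17 points (mean -3.79 ± 0.40, SD, n = 3; exact permutation test, p = 0.167). The level of KRT5 was not: in shCCT2 3 it was above the control, at 298 CPM against 258, where the keratin sum was 6366 CPM against 2913. KRT17 held 6.95% in shCtrl 1, 6.02% in shCCT2 1 and 6.14% in shCCT2 2, and 13.9% in shCtrl 2 and 1.75% in shCCT2 3 (mean difference -4.62 ± 6.496 points, SD, n = 3; exact permutation test, p = 0.167). KRT14, the partner of KRT5, did not follow it in each library: it held 4.24% in shCtrl 1, 5.17% in shCCT2 1 and 3.63% in shCCT2 2, and 3.01% in shCtrl 2 and 1.54% in shCCT2 3. KRT7 plus KRT19, which belong to simple epithelia as KRT8 and KRT18 do, held 28.97%, 27.8% and 28.4% in set A, and 1.85% in shCtrl 2 and 0.37% in shCCT2 3 (differences of -1.13, -0.59 and -1.48 points; exact permutation test, p = 0.167). Without shCCT2 3 the mean difference was 5.12 points for KRT8 plus KRT18 and -0.87 for KRT17. For KRT8 plus KRT18, KRT5, KRT17 and KRT7 plus KRT19 the knockdown libraries lay on 1 side of their controls, and the design cannot give a smaller p. The sums KRT8 plus KRT18 and KRT7 plus KRT19 were set up after their members' values were known, and shares of 1 total are not independent of each other.

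Among the type II keratins, the ratio of basal KRT5 to simple KRT8 was below its control in each knockdown library, while among the type I keratins that of basal KRT14 to simple KRT18 was not. The log2 ratio of KRT5 to KRT8 was -0.92 in shCtrl 1, -1.57 in shCCT2 1 and -1.66 in shCCT2 2, and -1.45 in shCtrl 2 and -3.00 in shCCT2 3. The mean difference from the control was -0.98 ± 0.50 (SD, n = 3; exact permutation test, p = 0.167). With KRT6A and KRT6B added to KRT5 the ratio to KRT8 was -0.89, -1.50 and -1.61 in set A and -1.12 and -1.29 in set B, lower again in 3 of 3 with a mean difference of -0.50 ± 0.29 (SD, n = 3; p = 0.167 in the same exact test). The log2 ratio of KRT17 to KRT18, both type I, was -1.76, -2.03 and -2.09 in set A and -1.22 and -4.51 in set B. The log2 ratio of KRT14 to KRT18 was -2.47 in shCtrl 1, -2.25 in shCCT2 1 and -2.85 in shCCT2 2, and -3.42 in shCtrl 2 and -4.69 in shCCT2 3, above its control in 1 library and below it in 2 (mean difference -0.48 ± 0.75, SD, n = 3; exact permutation test, p = 0.5). The ratios of KRT5 to KRT8, KRT17 to KRT18 and KRT14 to KRT18 were chosen after the levels were seen. The share of type I keratins in all keratin counts was 36.7%, 37.5% and 38.2% in set A, and 57.1% in shCtrl 2 and 44.4% in shCCT2 3 (exact permutation test, p = 1).

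KRT6A and KRT15 took very different places in the pool of each library. KRT6A held 0.25% of keratin counts in shCtrl 1, 0.44% in shCCT2 1, 0.29% in shCCT2 2, 2.23% in shCtrl 2 and 9.90% in shCCT2 3. KRT15 held 0.05%, 0.03% and 0.07% in shCtrl 1, shCCT2 1 and shCCT2 2, 6.91% in shCtrl 2 and 0.96% in shCCT2 3. The share of KRT6A was largest in shCCT2 3 and that of KRT15 in shCtrl 2.

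**Figure D4:**
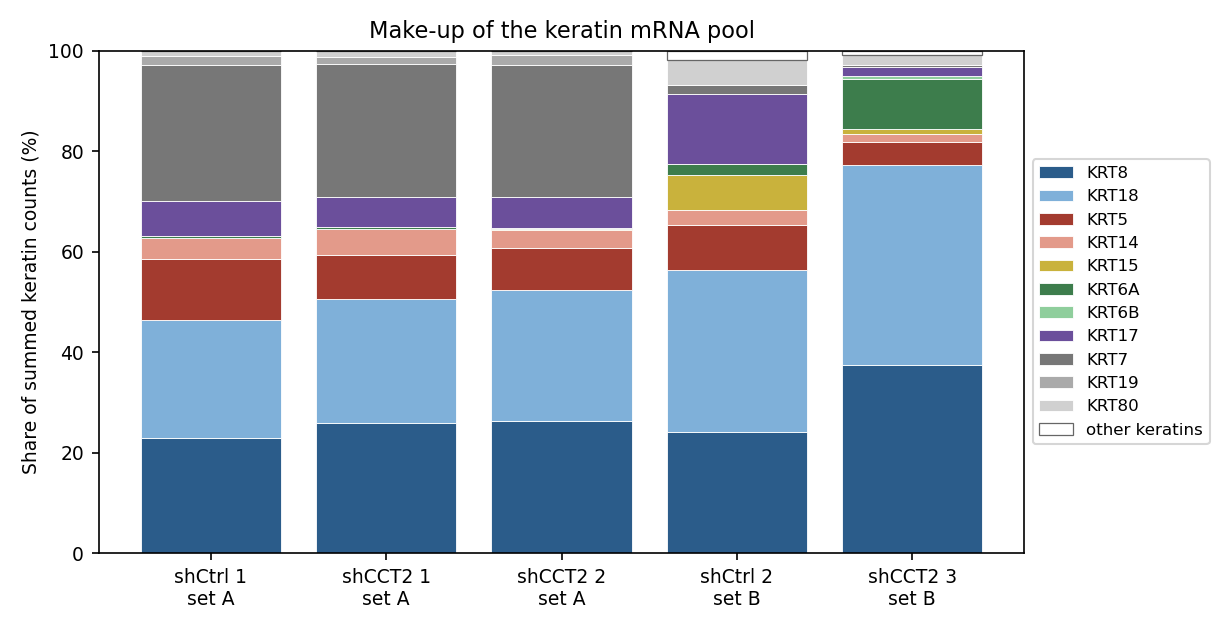
Share of the summed counts of 25 keratin genes (vertical axis, percent) held by each named keratin in each of the 5 libraries. KRT8 and KRT18 together reach 77.2% in shCCT2 3, KRT6A 9.90% there, and KRT7 is a broad band in set A (26.3% to 27.1%) and narrow in set B (0.34% and 1.80%).

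Per kilobase of transcript, levels can be set against each other within a library. In shCtrl 1 the order was KRT18 (2654 CPM per kb), KRT8 (2092), KRT5 (768), KRT17 (735), KRT14 (409), KRT6A (17.4), KRT15 (3.06), KRT16 (1.19) and KRT6B (0.71). The neighbours KRT5 and KRT17 changed places in both knockdown libraries of set A, where KRT17 was at 415 and 651 and KRT5 at 361 and 526, so their order did not hold over libraries. In shCtrl 2 the order was KRT18 (662), KRT8 (401), KRT17 (266), KRT5 (102), KRT15 (84.1), KRT14 (52.7), KRT13 (32.9), KRT6A (28.1), KRT16 (5.97) and KRT6B (0.75). In shCCT2 3 KRT6A had 273 CPM per kb and came after KRT18 (1780.4) and KRT8 (1360) and before KRT5 (118), KRT17 (73.3) and KRT14 (59.0). KRT18 exceeded KRT8 in each library on this scale. Transcript lengths were those of GENCODE 29, and no source used here names the annotation behind the counts.

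For the 7 members with a mean of 10 CPM or more that both tables list, and for the summed members, the genes with the closest profile were found by the root mean square distance of centred log2 CPM over the 5 libraries, among genes with a mean of 10 CPM or more. The summed members were closest to NDRG4 (0.07), CARD6 (0.11) and IRX4 (0.11). KRT14 was closest to AIF1L (0.07), KRT17 to SLC12A7 (0.09), KRT18 to NDRG4 (0.11), KRT8 to CARD6 (0.12) and KRT5 to AHRR (0.21). KRT18 was the third closest gene to KRT8 (0.17), and none of the other 6 members had a keratin among its 3 closest. KRT15 and KRT6A had no gene as near, with CLIC3 at 0.30 and SOX9 at 0.43 as the closest. SOX9, a transcription factor of progenitor cells, was at 18.2 CPM in shCtrl 1, 15.0 in shCCT2 1, 18.9 in shCCT2 2, 28.6 in shCtrl 2 and 128 in shCCT2 3. PSMA1 (0.446) and EFNB2 (0.453) were almost as near to KRT6A. They too were highest in shCCT2 3, at 1693 and 88.3 CPM, beside 463 and 20.8 in shCtrl 2. The nearness to KRT6A thus leans on that 1 library, and a tie between these genes was not tested. These distances describe 5 libraries that share sets and controls.

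Genes that work with keratin filaments were read from 4 lists, and no member of any list passed the hairpin test (0.0% of all genes did). Of 12 genes that link filaments to desmosomes and other structures, 8 had a fitted change above 0 and 4 below, with a median of 0.26. Those with the smallest p were PKP3, a desmosomal plakophilin (0.66 ± 0.29), PPL, a cornified-envelope plakin (-0.41 ± 0.19), EPPK1, a keratin-bundling plakin (-0.62 ± 0.33), and PLEC, the main plakin linker of keratin to hemidesmosomes (0.59 ± 0.32), each at an adjusted p of 0.542 in edgeR. Of 10 keratin-binding chaperones and adaptors, 6 were above 0 and 4 below, with a median of 0.27. PNN, a keratin-binding protein of cell junctions and the nucleus (0.58 ± 0.18), and TCHP, a keratin-binding centrosomal protein (0.65 ± 0.24), were above their controls in 3 of 3 libraries (adjusted p = 0.542 in edgeR). Both were named for their small p within this list, and 20.2% of all genes were above their controls in 3 of 3. HSPB1, a small heat shock protein that binds keratin filaments, was at 576 CPM in shCtrl 1, 443 in shCCT2 1, 556 in shCCT2 2, 306 in shCtrl 2 and 52.5 in shCCT2 3, a fitted change of -1.25 ± 0.55 (adjusted p = 0.542). Its low value in shCCT2 3 stood in the library where KRT6A and KRT6B were high.

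Between sets, where 14.9% of all genes were higher in set B and 13.8% lower at an adjusted p under 0.05, 1 of the 10 chaperone-list genes was higher and 3 were lower, among the lower ones HSPB1 (-2.19 ± 0.58, adjusted p = 0.0367). Between sets 0 of the 12 linkers passed, beside 28.7% of all genes. Of 9 other intermediate filament genes tested out of 15, 4 had a hairpin change above 0 and 5 below, with a median of -0.17, and 1 was higher and 2 lower in set B, 3 of 9 beside 28.7% of all genes. The lamin LMNB1 was above its control in 3 of 3 libraries (0.57 ± 0.19, adjusted p = 0.542 in edgeR), as was LMNB2 (0.47 ± 0.20). Both were named for their small p within this list, and 20.2% of all genes were above their controls in 3 of 3. NES, the intermediate filament protein of progenitor cells, was at 8.37 to 13.7 CPM in set A and 0.64 to 0.82 in set B (set difference -3.87 ± 0.44, adjusted p = 0.00385).

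The list of regulators held transcription factors known to act on keratin genes and the RNA splicing regulators ESRP1 and ESRP2. Of its 20 genes, 12 had a fitted hairpin change above 0 and 8 below, with a median of 0.09. Between sets 5 of 20 were higher and 5 lower in set B at an adjusted p under 0.05, where 14.9% and 13.8% of all genes were. SOX2, a factor of squamous progenitors, was at 0.58 CPM in shCtrl 1, 0.18 in shCCT2 1 and 0.12 in shCCT2 2, and at 21.1 in shCtrl 2 and 2.68 in shCCT2 3. It was below its control in 3 of 3 libraries, with a fitted change of -2.59 ± 0.49 (adjusted p = 0.542), and its set difference was 4.69 ± 0.49 (adjusted p = 0.00322). GRHL3 (-1.37 ± 0.47), NFIB (-0.93 ± 0.33) and ZNF750 (-1.91 ± 0.80), regulators of epithelial differentiation, were likewise below their controls in 3 of 3, with adjusted p = 0.542 each. SOX2 and these genes were named for the smallest p of the 20, a choice that favours changes of 1 direction. Of all genes, 21.4% were below their controls in 3 of 3. ZNF750 was at no more than 3.87 CPM in any library. NFIB was also lower in set B (-1.65 ± 0.35, adjusted p = 0.0200). TP63, the master factor of squamous epithelium and a direct activator of KRT5 and KRT14, was at 224 CPM in shCtrl 1, 161 in shCCT2 1 and 203 in shCCT2 2, and at 116 in shCtrl 2 and 202 in shCCT2 3. TP63 was picked out for its known role after its values were seen.

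By position, the members fall into both keratin clusters of the genome. Among the listed keratins, in the RefSeq order of the type II cluster, KRT6B, KRT6C, KRT6A and KRT5 are neighbours, and KRT8 and KRT18 close the cluster side by side. KRT6A, high in shCCT2 3, and KRT5, level between shCtrl 2 and shCCT2 3, are next to each other. In the type I cluster KRT13, KRT15, KRT19, KRT9, KRT14, KRT16 and KRT17 follow one another. Of these, KRT15 and KRT16 were higher in set B and KRT14, KRT17 and KRT19 lower, so that genes with opposite differences between sets lay interleaved. KRT9 had 5 or 6 counts in the other 4 libraries and 24 in shCCT2 3.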

How the data were processed

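RNA-seq of 5 SAS libraries was used. The authors deposited expected counts per gene in 2 tables, with 86.2% to 87.9% of the values in each library whole numbers, and a signal file of read position along transcripts per library, which was not used for any result. Per the submitters' processing notes, STAR 1.5.1, HTSeq and mm10 were named without a role. Of the gene identifiers, 98.8% in set A and 98.7% in set B matched RefSeq's human genes, so no coordinates are printed. Groups and tables follow the labels. Joining was by gene identifier (15187 genes shared, 763 in set A alone, 1032 in set B alone), symbols turned into dates were restored for 25 genes, and expected counts were rounded. The quasi-likelihood test of edgeR 4.0.16 (R 4.3.3) was used with TMM scaling, its filter on low counts, terms for set and hairpin and 2 residual degrees of freedom, adjusted by Benjamini-Hochberg over 13123 genes. The SE is the fitted log2 difference over the root of F. Alternatives included DESeq2 1.42.0, other scalings and filters, and each library left out. Sequences and lengths came from GENCODE 29 and were aligned with mafft 7.526. No pair of libraries had a chi-square per degree of freedom under 19.4, so none was counted as a copy. The rule for named genes takes the 10 members, CCT2, other keratins with a mean of 10 CPM or more, up to 4 genes per list by the smallest p, and the 3 nearest profiles. The members and lists were chosen with earlier results of these data known. The fit was tested on simulated data. The values of 1 list member are not reported here.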

Additional observations from a re-analysis of the deposited data

Results flagged for a closer look

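For 3 keratins both knockdown libraries of set A lay on 1 side of their control and the knockdown library of set B on the other, as did 22.6% of all genes tested. KRT5 was at a log2 change of -1.09 and -0.54 in shCCT2 1 and shCCT2 2 and at 0.21 in shCCT2 3. KRT14, its partner, was at -0.33 and -0.22 in set A and at 0.16 in set B. KRT6B was at -0.81 and -0.87 in set A, from no more than 28.01 counts a library, and at 4.35 in set B. The difference of the change between sets was tested as an interaction in edgeR's quasi-likelihood fit and did not pass for any of them, with adjusted p = 0.291 for KRT5, 0.486 for KRT14 and 0.0932 for KRT6B.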

How the results depend on the processing

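The count of members past the hairpin test was 0 under each alternative run, and 0 when each library was left out. With DESeq2, CCT2 passed (-1.21, adjusted p = 3.90e-05), and leaving out each library gave CCT2 values of -1.27 to -1.15. The replicate numbers of the labels do not pair the libraries: deviations from the group means correlated at 0.69 for the pair numbered 1, which share a set, and at -0.62 for the pair numbered 2, which do not. With the number as a replicate block in place of the set, 0 members passed, CCT2 was at -1.16, and 5 members changed sign, KRT5 (0.64), KRT6A (-0.16), KRT6B (-1.27), KRT14 (1.20) and KRT17 (0.23). None of these sign changes passed a test. Leaving out a library left 1 sample in some arms, whose spread was taken to equal that of the others. With each library left out in turn, the fitted change ran from -0.79 to 0.24 for KRT5, -0.28 to 0.19 for KRT14, -1.24 to 4.73 for KRT6B, -0.085 to 1.79 for KRT8, -1.69 to 0.016 for KRT15, -0.090 to 0.081 for KRT16 and -0.15 to 1.46 for KRT18. KRT5 and KRT14 were above 0 without shCtrl 1, and KRT6B, KRT8, KRT15, KRT16 and KRT18 changed sign without shCtrl 2 and without shCCT2 3. With a term for the set, the fit without shCtrl 1 compares shCCT2 3 with shCtrl 2 alone. The fits without shCtrl 2 and without shCCT2 3 both compare the libraries of set A alone, so they are 1 comparison and not separate checks. In set A alone, added after seeing the data and the same comparison again, KRT6B was at -1.23, KRT8 at -0.084, KRT15 at 0.017, KRT16 at 0.082 and KRT18 at -0.15. KRT16 was at 0.0025 with no filter on low counts and also above 0 without shCCT2 2, and KRT14 was at 0.084 with no table term. The mean log2 change of the summed keratins ran from -0.31 without shCCT2 3 to 0.57 without shCCT2 1. The share of KRT5 differed by -5.14 points as a share of the members alone, beside -3.79, because the total is smaller. The share differences ran from 5.12 to 13.4 points for KRT8 plus KRT18, from -6.53 to -0.87 for KRT17 and from -4.00 to -3.60 for KRT5 as each knockdown library was left out, each nearest 0 without shCCT2 3. The number of members differing between sets was 5 to 7 as each library was left out, where 14.5% to 28.9% of all genes were called, and 9 with DESeq2, where 34.2% were, beside 6 and 28.7%. Setting genes of 1 table to 0 in the other was also added after seeing the data, and gave KRT13 a hairpin change of -1.04 (adjusted p = 0.537). There is 1 control per set, and KRT6B and KRT16 in set A rest on fewer than 40 counts a library.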
